A study of Danio rerio with 8 samples.

Results

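The ifi27 genes of the zebrafish form an array on chromosome 13, and bulk RNA sequencing read their RNA in the ventricles of adult offspring of 2 kinds of father. The members were all rows of the count table whose symbol begins with ifi27 and that lie on chromosome 13, which gave 8 of 32520 genes, with 0 genes of that name on other chromosomes. The family was chosen by its values in the comparison of the father groups, in which the copy ifi27.3 has one of the smallest p-values of the table. Differences between the father groups are therefore given for the copies as a description, with no test in their support. The genes beside the array were not part of that choice. Levels of the copies within Pu-Fu enter that comparison, so they are not independent of the choice.

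In the Pi-Fu group, fathers carried a cryoinjury, in which a patch of heart muscle is killed by cold, and were mated 7 days after it. In the Pu-Fu group the fathers were uninjured. Mothers were uninjured in both groups, the offspring themselves had no injury, and no strain, sex or exact age is given in the sources used here. Each group has 4 libraries, and each library pools ventricles of 4 siblings with the atrium and the outflow bulb removed. They carry the numbers 1, 2, 4 and 7 in Pi-Fu and 1, 3, 4 and 5 in Pu-Fu. Whether pools within a group came from separate fathers is not given in the labels, so the spread between libraries is that between pools.

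IFI27, also called ISG12, is in human a small hydrophobic protein whose gene is switched on by type I interferon, the alarm signal that cells release on sensing a virus. Interferon binds its receptor, Janus kinases then activate transcription factors, and these turn on a wide set of antiviral genes. Where human has a few relatives of IFI27, the zebrafish carries several copies side by side, and arrays of this kind commonly arise by tandem duplication.

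Library totals ran between 8441014 and 16290169 counts in Pi-Fu and between 12450251 and 14736121 counts in Pu-Fu. The ifi27 copies together took between 0.0201% and 0.101% of a library. Summed cardiomyocyte markers stood at 60400 to 75800 CPM in Pi-Fu and 66000 to 71900 CPM in Pu-Fu, with 0 of the 8 markers absent. The 4 atrial cardiomyocyte markers summed to 300, 270, 228 and 70.9 CPM in Pi-Fu libraries 1, 2, 4 and 7. In Pu-Fu libraries 1, 3, 4 and 5 they summed to 183, 303, 252 and 158 CPM. Pi-Fu library 7 was thus the lowest in atrial markers, and the relation of this to the ifi27 values was not tested. CPM are counts of a gene per 1000000 counts of its library, with totals scaled by TMM factors, which offset differences in composition between libraries. No library was a repeat of another of its group. Pairs of libraries of 1 group differed by a chi-square of 20.5 to 95.1 per degree of freedom, where counting error alone gives about 1. Libraries of different groups were not compared in this way.

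All 8 copies lie on the minus strand of GRCz11, within 50.8 kb. Of the other annotated genes, 0 lie wholly inside that span, while PHF3 begins inside it, across ifi27.8. Along the chromosome, ifi27.1 comes first (ENSDARG00000017489, chromosome 13, 37605896 to 37608441). It is followed by ifi27.3 (ENSDARG00000074217, 37609458 to 37615029) and ifi27.2 (ENSDARG00000039243, 37617518 to 37620290), so the numbering does not follow the order. Next come ifi27.4 (ENSDARG00000078389, 37623276 to 37631092), ifi27.5 (ENSDARG00000092725, 37633904 to 37636147) and ifi27.6 (ENSDARG00000074754, 37638758 to 37642901). The array ends with ifi27.7 (ENSDARG00000075151, 37645572 to 37649595) and ifi27.8 (ENSDARG00000092895, 37650673 to 37656690).

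The gaps between neighbouring copies measure 1016 to 2985 bases. Merged exons number 3 in ifi27.5, 4 in ifi27.2, ifi27.4, ifi27.6 and ifi27.7, 5 in ifi27.1, and 6 in ifi27.3 and ifi27.8. Exon lengths run between 693 bases in ifi27.6 and 1380 bases in ifi27.3. PHF3 is on the plus strand, and 248 of the 904 exon bases of ifi27.8 are also exon of PHF3. Reads were counted without regard to strand and reads over exons of several genes were left out, so ifi27.8 lost reads there, and elsewhere in its exons reads of either strand count toward it.

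Reads that map to several places were not counted. Each level below is therefore that of reads unique to 1 copy, and a copy that shares long stretches with another has fewer counts than its RNA would give. The size of that loss in each copy was not determined, as no genome or transcript sequence was used here.

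Most reads of the array came from 4 of its copies. Divided by exon length, ifi27.2 stood highest, at 260 ± 179 CPM per kilobase in Pi-Fu and 87.2 ± 24.8 in Pu-Fu (SD, n = 4 each, as for all means in this paragraph). The second was ifi27.1, at 89.7 ± 26.4 CPM per kilobase in Pi-Fu and 55.5 ± 7.68 in Pu-Fu. Both lie in the first part of the array, on either side of the weak copy ifi27.3. The other end of the array was also strongly read, with ifi27.8 at 52.2 ± 12.2 CPM per kilobase in Pi-Fu and 45.2 ± 4.3 in Pu-Fu. Its neighbour ifi27.7 was at 78.7 ± 37.0 CPM per kilobase in Pi-Fu and 30.7 ± 5.98 in Pu-Fu. The remaining copies were much lower. Of these, ifi27.4 was at 33.0 ± 16.9 CPM per kilobase in Pi-Fu and 11.8 ± 2.08 in Pu-Fu. The level of ifi27.6 was 15.9 ± 10.1 CPM per kilobase in Pi-Fu and 7.43 ± 3.16 in Pu-Fu. Close to it, ranked 6 of 8 in Pi-Fu and 7 of 8 in Pu-Fu, was ifi27.3, with 17.8 ± 11.7 CPM per kilobase in Pi-Fu and 3.9 ± 1.19 in Pu-Fu. The lowest was ifi27.5, at 4.44 ± 4.9 CPM per kilobase in Pi-Fu and 0.841 ± 0.396 in Pu-Fu.

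**Figure D1:**
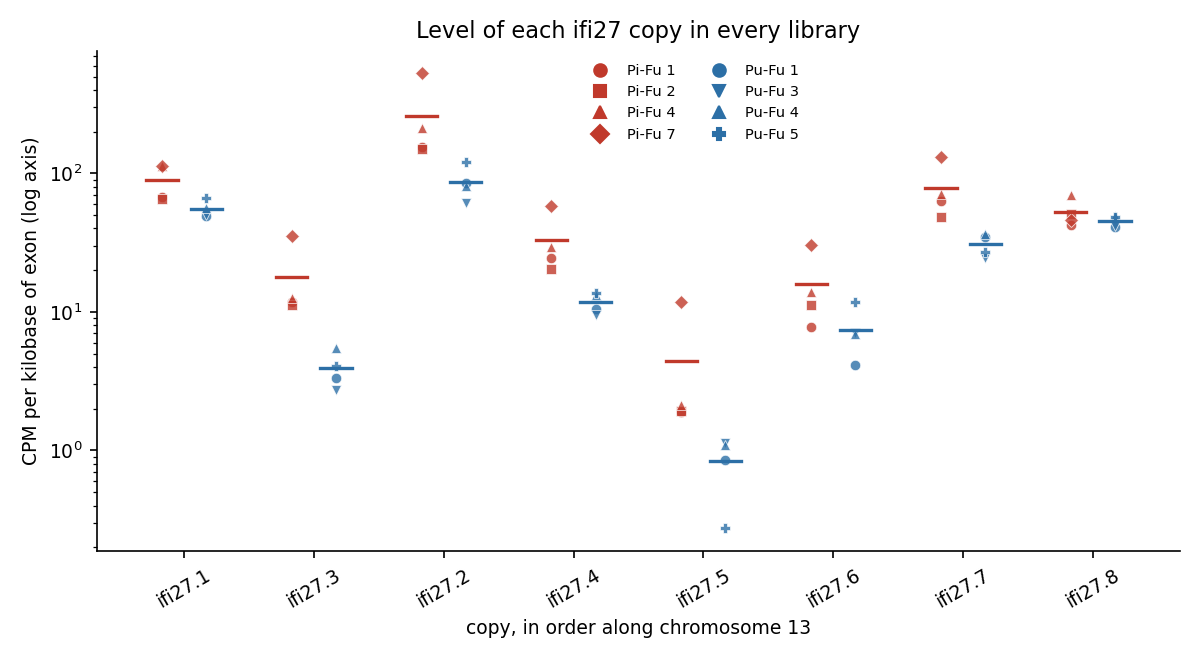
Level of each ifi27 copy in CPM per kilobase of exon, on a log axis, with the copies in their order along chromosome 13. Points are libraries (Pi-Fu left in red, Pu-Fu right in blue) and lines are group means; ifi27.2 is highest and ifi27.5 lowest in both groups, and the Pi-Fu library numbered 7 stands above the others in 6 copies.

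The order of the copies was set by their mean levels in Pu-Fu. Agreement with it in the Pu-Fu libraries is therefore partly built in, while the Pi-Fu libraries had no part in setting it. Neighbours in this order were apart in every Pu-Fu library. There, ifi27.2 exceeded ifi27.1 in 4 of 4 libraries, by 0.62 ± 0.27 on the log2 scale of CPM per kilobase (SD). The smallest step was that of ifi27.1 over ifi27.8, at 0.29 ± 0.11, also in 4 of 4 Pu-Fu libraries. It depends on the length used: without the exon bases that ifi27.8 shares with PHF3, its Pu-Fu level was 62.2 CPM per kilobase, above the 55.5 of ifi27.1. On that length, chosen after the data were seen, ifi27.8 was above ifi27.1 in 1 of 4 Pi-Fu libraries and 4 of 4 Pu-Fu libraries. With the full length, 2 of the 7 steps did not hold in the Pi-Fu libraries. The level of ifi27.8 was above that of ifi27.7 in 1 of 4 Pi-Fu libraries against 4 of 4 Pu-Fu libraries, with a mean log2 difference of -0.51 ± 0.73 in Pi-Fu and 0.57 ± 0.28 in Pu-Fu. Without the shared bases it was above in 2 of 4 Pi-Fu libraries and 4 of 4 Pu-Fu libraries, by -0.05 ± 0.73 in Pi-Fu and 1.04 ± 0.28 in Pu-Fu. Likewise ifi27.6 was above ifi27.3 in 1 of 4 Pi-Fu libraries against 4 of 4 Pu-Fu libraries, with -0.17 ± 0.33 in Pi-Fu and 0.88 ± 0.66 in Pu-Fu. The steps of ifi27.7 over ifi27.4 were 1.27 ± 0.08 in Pi-Fu and 1.38 ± 0.31 in Pu-Fu. They differed by less than the Pu-Fu SD, though by more than the Pi-Fu SD. A difference in order between the father groups restates the unequal log2 folds of the copies, which the choice of the family used, and is a description.

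Between the father groups, all 8 copies had a higher mean in Pi-Fu, by very different amounts. The log2 folds ran between 0.21 and 2.42, with a median of 1.42, where the median of the 13604 tested genes was -0.011 and 48.6% of those were positive. In bulk ventricle, more cells that express a gene and more RNA per cell cannot be told apart.

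The third copy in line, ifi27.2, carried the largest share of the reads. It was at 153, 148, 209 and 521 CPM in Pi-Fu libraries 1, 2, 4 and 7, and at 85.1, 60.5, 80.3 and 120 CPM in Pu-Fu libraries 1, 3, 4 and 5. Each Pi-Fu library lay above each Pu-Fu library, and library 7 stood far above the rest of Pi-Fu. The edgeR log2 fold was 1.58 (SE 0.40), and 0.98 without Pi-Fu library 7.

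Its neighbour ifi27.3 had 16.3, 15.6, 17.5 and 48.9 CPM in Pi-Fu and 4.60, 3.76, 7.57 and 5.62 CPM in Pu-Fu, in the same order of libraries. The groups did not overlap, and 3 of the Pi-Fu libraries lay within 2 CPM of each other. The log2 fold was 2.19 (SE 0.40), and 1.61 without Pi-Fu library 7, the highest among the copies in that setting.

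On the other side of ifi27.2, ifi27.4 had 26.3, 22.1, 31.9 and 62.5 CPM in Pi-Fu and 11.4, 10.3, 14.4 and 14.9 CPM in Pu-Fu. The groups were again apart, with a log2 fold of 1.49 (SE 0.31). Similar spacing was seen in ifi27.7, with 54.2, 41.6, 61.0 and 114 CPM in Pi-Fu and 29.9, 20.9, 31.6 and 23.2 CPM in Pu-Fu, and a log2 fold of 1.36 (SE 0.29). Without Pi-Fu library 7 these folds were 1.07 for ifi27.4 and 0.99 for ifi27.7.

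The weakest copy rested on few reads. For ifi27.5 the counts were 18, 15, 24 and 172 in Pi-Fu and 10, 12, 13 and 3 in Pu-Fu, or 1.61, 1.65, 1.82 and 10.0 CPM in Pi-Fu and 0.730, 0.960, 0.937 and 0.234 CPM in Pu-Fu. Its groups did not overlap, yet the log2 fold of 2.42 (SE 0.69), the largest of the array, turned on Pi-Fu library 7 and was 1.23 without it. The small number of reads left the other 3 Pi-Fu libraries less than 1 CPM above the highest Pu-Fu library.

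In the other 3 copies the groups overlapped. Copy ifi27.6 had 5.38, 7.80, 9.71 and 21.2 CPM in Pi-Fu and 2.85, 4.88, 4.76 and 8.12 CPM in Pu-Fu, with a log2 fold of 1.11 (SE 0.43) that was 0.57 without Pi-Fu library 7. Its overlap came from Pu-Fu library 5, which lay above Pi-Fu libraries 1 and 2.

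At the start of the array, ifi27.1 was at 83.0, 80.4, 138 and 138 CPM in Pi-Fu and at 60.0, 61.5, 69.1 and 80.5 CPM in Pu-Fu. Here Pi-Fu libraries 4 and 7 were equally high, and Pi-Fu library 2 was just under Pu-Fu library 5. The log2 fold was 0.69 (SE 0.22), and 0.57 without Pi-Fu library 7, level with ifi27.6 in that setting.

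At the far end, ifi27.8 had 38.5, 45.8, 63.2 and 41.4 CPM in Pi-Fu and 37.4, 37.6, 44.7 and 43.6 CPM in Pu-Fu. Pi-Fu library 4 was highest and library 2 just above the highest Pu-Fu library, while Pi-Fu libraries 1 and 7 lay among the Pu-Fu values. The log2 fold was 0.21 (SE 0.19), and 0.27 without Pi-Fu library 7. Pi-Fu library 7, the highest in 6 of the 8 copies, was below the mean of the other Pi-Fu libraries here, at 0.843 times that mean, while it was at 5.93 times that mean in ifi27.5, 3.06 times in ifi27.2 and 2.96 times in ifi27.3.

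**Figure D2:**
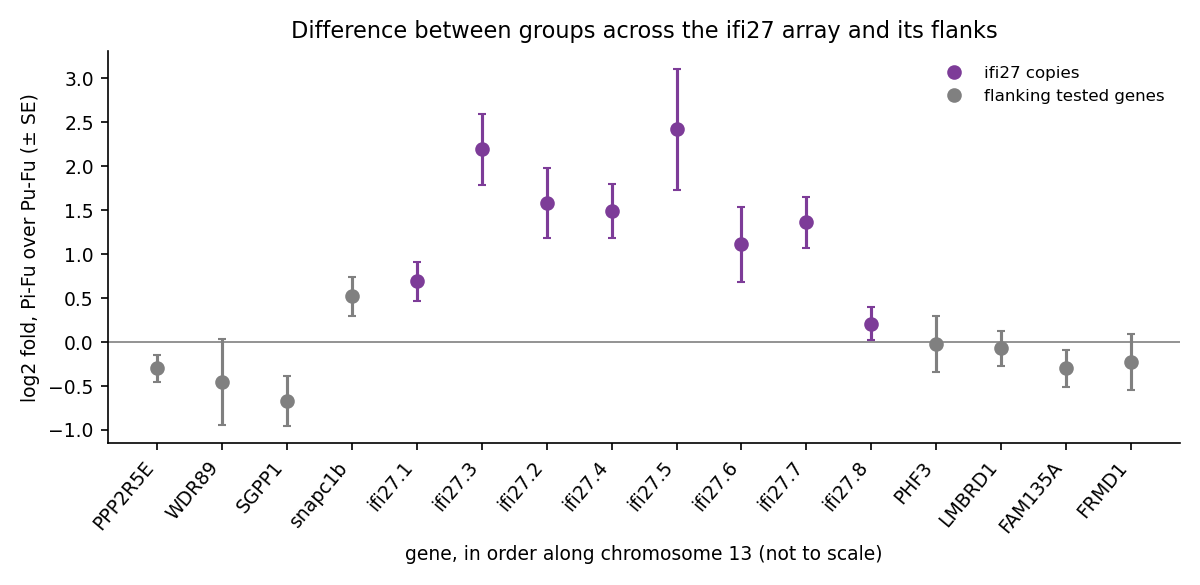
The edgeR log2 fold of Pi-Fu over Pu-Fu, with its SE, for the 8 ifi27 copies and the 4 nearest tested genes on each side, in their order along chromosome 13 and not to scale. Folds run between 0.21 and 2.42 in the copies, with the lowest values at both ends of the array (ifi27.1 and ifi27.8), and between -0.67 and 0.52 in the flanking genes.

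In 5 of the 8 copies all Pi-Fu libraries lay above all Pu-Fu libraries, as did 2.6% of the tested genes. After adjustment over all tested genes, edgeR called 0 of the 8 copies, where it called 0% of the table, with 971 genes at an unadjusted p under 0.05 in either direction. At that unadjusted p, 7 of the 8 copies were higher, as were 3.67% of the tested genes. DESeq2 called ifi27.2, ifi27.3, ifi27.4 and ifi27.7, all higher, among 7 copies for which it gave an adjusted p; it gave none for ifi27.5, and it called 0.345% of the genes with an adjusted p as higher. Limma voom called 0 genes. As the family was chosen on this contrast, these counts describe the copies and support nothing further.

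Summed over the 8 copies, the libraries had 379, 363, 532 and 956 CPM in Pi-Fu and 232, 200, 253 and 296 CPM in Pu-Fu. The lowest Pi-Fu library was 1.23 times the highest Pu-Fu library. The means were 557 ± 277 CPM in Pi-Fu and 245 ± 40.0 CPM in Pu-Fu (SD, n = 4), a ratio of 2.27. Without library 7 the Pi-Fu mean was 424 ± 93.5 CPM (n = 3), and the ratio 1.73. Compared one library at a time, Pi-Fu library 4 was above the highest Pu-Fu library in 8 copies, library 7 in 7, and libraries 1 and 2 in 6 each. The share of all tested genes above that mark was not determined for single libraries. As the family was chosen on this contrast, these counts are a description only.

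The mix of copies also differed between the libraries. Differences in mix between the father groups restate the unequal log2 folds of the copies, which the choice of the family used, and are a description. The share of ifi27.8 in the summed counts was 10.2%, 12.6%, 11.9% and 4.33% in Pi-Fu, against 16.1%, 18.8%, 17.6% and 14.8% in Pu-Fu. Every Pi-Fu share was below every Pu-Fu share. For ifi27.1 the shares averaged 21.1% ± 4.81 in Pi-Fu and 27.8% ± 2.05 in Pu-Fu (SD, n = 4), but Pi-Fu library 4 and Pu-Fu library 1 were nearly equal at 25.9%. In the other direction, ifi27.3 made up 4.25% ± 0.744 in Pi-Fu and 2.19% ± 0.535 in Pu-Fu, without overlap. The share of ifi27.4 was 6.39% ± 0.436 in Pi-Fu and 5.20% ± 0.342 in Pu-Fu, also without overlap.

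For ifi27.2 the shares were 40.5%, 40.8%, 39.3% and 54.5% in Pi-Fu and 36.7%, 30.2%, 31.7% and 40.4% in Pu-Fu, which overlap. In Pi-Fu library 7 the share had an exact 95% binomial interval of 53.7% to 55.2%, which covers the counting error of reads only. The level of ifi27.2 per kilobase was 3.63, 2.94, 3.02 and 11.5 times that of ifi27.8 in Pi-Fu, and 2.08, 1.47, 1.64 and 2.50 times in Pu-Fu. A ratio within a library does not depend on how libraries are scaled, but set between the father groups it too restates the unequal log2 folds. It was above all Pu-Fu values in each Pi-Fu library, and by far the highest in library 7. The ratio of ifi27.3 to ifi27.2 overlapped between the groups, at 0.0699 ± 0.00776 in Pi-Fu and 0.0462 ± 0.015 in Pu-Fu.

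**Figure D3:**
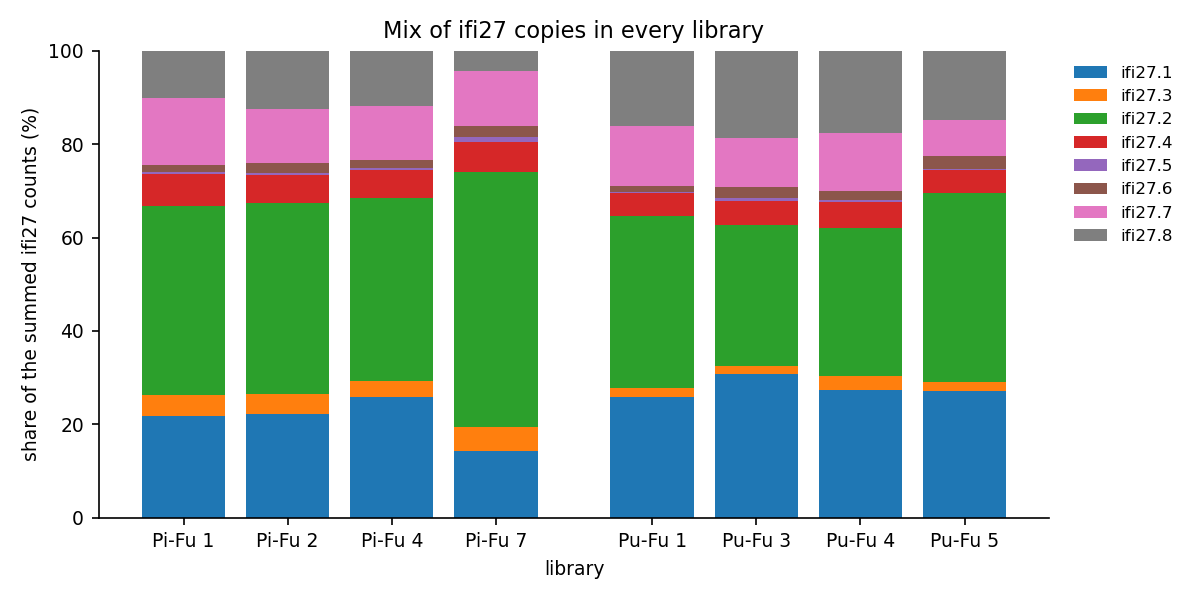
Share of each ifi27 copy in the summed unique counts of the array, in percent, in the 4 Pi-Fu libraries (left) and the 4 Pu-Fu libraries (right). The share of ifi27.8 is 4.33% to 12.6% in Pi-Fu and 14.8% to 18.8% in Pu-Fu, and ifi27.2 makes up 54.5% in Pi-Fu library 7.

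Across the 8 libraries, the log2 CPM of the copies other than ifi27.8 were correlated. Pearson's r between pairs of these 7 copies lay between 0.69 and 0.98 over 21 pairs. The closest pairs were ifi27.3 with ifi27.4 and ifi27.2 with ifi27.4, both at 0.98. Copy ifi27.8 stood apart, with r between 0.10 and 0.65 to the other copies. Without Pi-Fu library 7 the 7 copies had r between 0.15 and 0.97, and ifi27.8 had r between 0.34 and 0.90, with 0.90 to ifi27.1. These values describe libraries that share their depth among all copies, and they include the difference between the father groups.

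Genes beside the array were not part of the choice, while the copies were chosen on this contrast. A gap in log2 fold between the copies and these genes is therefore partly built in, and is a description. The 4 nearest tested genes before the array lie 5.3 to 140.0 kb from it, while after it PHF3 overlaps its end and the other 3 lie 965 to 1580 kb away. Of these 8 genes, 1 had a positive log2 fold and 7 a negative one, between -0.67 and 0.52. Edge copy ifi27.1 lies 5.3 kb from snapc1b, of a small nuclear RNA activating complex, which was at 8.79, 12.7, 11.9 and 9.11 CPM in Pi-Fu and 7.66, 9.04, 5.91 and 7.11 CPM in Pu-Fu. Those groups overlapped, with a log2 fold of 0.52 (SE 0.22) and an edgeR adjusted p of 0.68. On the far side, PHF3, whose span overlaps ifi27.8, was at 21.3 ± 9.18 CPM in Pi-Fu and 21.6 ± 6.41 CPM in Pu-Fu (SD, n = 4), a log2 fold of -0.02 (SE 0.32).

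Further out, SGPP1, a sphingosine phosphate phosphatase gene 86.1 kb before the array, was at 4.32 ± 1.38 CPM in Pi-Fu and 6.89 ± 1.52 CPM in Pu-Fu (SD, n = 4; log2 fold -0.67, edgeR adjusted p = 0.66). The phosphatase subunit gene PPP2R5E was at 61.8 ± 3.98 CPM in Pi-Fu and 76.0 ± 7.41 CPM in Pu-Fu, and here every Pi-Fu library lay below every Pu-Fu library (log2 fold -0.30). The share of all tested genes without overlap in that direction was not determined. The log2 folds of WDR89, LMBRD1, FAM135A and FRMD1 were -0.45, -0.07, -0.30 and -0.23. After adjustment edgeR called 0 genes of the whole table, these 8 flanking genes included. Of these 8, 2 had an unadjusted edgeR p under 0.05, with snapc1b higher and SGPP1 lower. Across the 13604 tested genes 971 had such a p, in either direction.

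Of the genes outside the array, those that followed its summed level most closely over the 8 libraries were ftr80, si:ch73-380l3.4, mov10b.1 and CISH, with Pearson's r between 0.974 and 0.982. These 4 are among the 5 highest of all tested genes, by which they were picked, so high values are what the choice gives. The gene ftr80 belongs to the finTRIM family of fish and lies on chromosome 13 as well, 4.15 Mb from the array. It was at 7.00, 6.37, 7.36 and 17.1 CPM in Pi-Fu and 3.58, 3.52, 4.18 and 5.23 CPM in Pu-Fu. CISH, an inhibitor of cytokine signalling, was at 17.2, 20.9, 28.4 and 39.8 CPM in Pi-Fu and 12.3, 9.76, 13.2 and 17.7 CPM in Pu-Fu. In both genes the highest library was Pi-Fu library 7. Without it, the r of the 4 genes over 7 libraries lay between 0.933 and 0.966. By that r, ftr80 ranked 10, si:ch73-380l3.4 22, mov10b.1 27 and CISH 4, so of the 4 only CISH stayed among the 5 highest.

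Other genes of the interferon pathway were read by their roles, from lists chosen with earlier results of these data known, which give no independent support to the copies. RNA of the ligands was barely detected: the 6 interferon ligand genes together had 0.439 to 1.69 CPM in Pi-Fu and 0.640 to 1.61 CPM in Pu-Fu, and ifnphi1 was the 1 that could be tested (log2 fold -0.02). Among receptor genes 4 were tested, with a median log2 fold of 0.02; ifngr2 was at 39.4 ± 10.3 CPM in Pi-Fu and 35.4 ± 6.95 CPM in Pu-Fu (SD, n = 4), and il10rb and ifngr1l had log2 folds of 0.01 and -0.29.

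Signalling genes (kinases and transcription factors) had a median log2 fold of 0.61 over 11 tested, 9 of them positive. Kinase genes JAK2 on chromosome 5 and jak2a had log2 folds of 0.07 and -0.08. Genes of viral sensing had a median of 0.54 over 5 tested. Of these, the sensor gene DHX58 was at 16.9 ± 7.35 CPM in Pi-Fu and 6.31 ± 2.14 CPM in Pu-Fu, while the adaptor gene mavs and the sensor gene IFIH1 had log2 folds of -0.11 and 0.08. Feedback genes had a median of 1.32 over 4 tested. SOCS1 was at 5.92 ± 3.09 CPM in Pi-Fu and 1.58 ± 0.479 CPM in Pu-Fu, and the SOCS3 genes on chromosomes 3 and 12 had log2 folds of 0.58 and 1.25 with overlapping groups.

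Antiviral effectors other than ifi27 had a median log2 fold of 1.27 over 29 tested, with 27 positive. In this list RSAD2, the enzyme viperin, had 18.2, 15.3, 18.4 and 66.4 CPM in Pi-Fu and 3.28, 4.88, 4.54 and 5.08 CPM in Pu-Fu. The ubiquitin-like modifier gene isg15 had 6.46, 7.14, 3.64 and 14.7 CPM in Pi-Fu and 1.24, 2.32, 1.87 and 1.72 CPM in Pu-Fu. As in most ifi27 copies, both were highest in Pi-Fu library 7 and the groups did not overlap. Of the most abundant effectors, parp14rs1 and helz2b had log2 folds of 0.95 and 1.27, and the RNA editing gene adar 0.07. Over all 54 tested genes of these lists edgeR called 0 in either direction, and 33 were higher and 0 lower at an unadjusted p under 0.05, where 3.67% of all tested genes were higher. DESeq2 called 17, all higher, where it called 0.345% of the table as higher. Groups did not overlap in 27, all with Pi-Fu above, as in 2.6% of all tested genes.

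**Figure D4:**
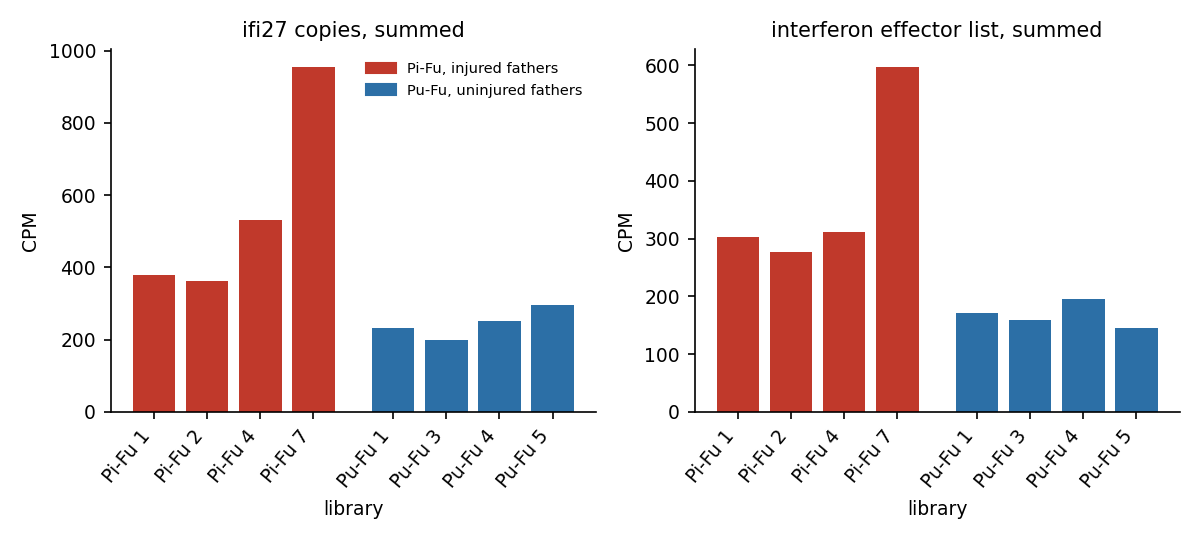
Summed CPM of the 8 ifi27 copies (left panel) and of the 41 matched genes of the interferon effector list (right panel), which holds no ifi27 copy, with a bar for each library, Pi-Fu in red and Pu-Fu in blue. The copies run between 363 and 956 CPM in Pi-Fu and 200 and 296 CPM in Pu-Fu, and the effector list between 277 and 598 CPM in Pi-Fu and 145 and 195 CPM in Pu-Fu; Pi-Fu library 7 is highest in both.

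Ventricles also hold blood and immune cells, so markers of these cells were read beside the ifi27 values. The 8 matched macrophage markers summed to 170 to 338 CPM in Pi-Fu and 151 to 216 CPM in Pu-Fu, with the highest value in Pi-Fu library 7, and 6 of 8 had a positive log2 fold. Their median log2 fold was 0.1, and at an unadjusted edgeR p under 0.05, 1 was higher and 1 lower. The 4 general leukocyte markers summed to 23.0 to 47.1 CPM in Pi-Fu and 25.5 to 34.3 CPM in Pu-Fu, with 4 of 4 positive and a median log2 fold of 0.22. Those of neutrophils were at 18.2 to 23.3 CPM in Pi-Fu and 14.9 to 20.5 CPM in Pu-Fu, with lyz at 0 in all libraries. Of the 3 tested neutrophil markers, 1 was higher and 0 lower at an unadjusted edgeR p under 0.05, with a median log2 fold of 0.04. Lymphocyte markers were near the limit of detection, at 3.41 to 7.28 CPM in Pi-Fu and 1.80 to 6.40 CPM in Pu-Fu for T and NK cells, where gzma was at 0, and at 2.74 to 7.36 CPM in Pi-Fu and 3.39 to 10.0 CPM in Pu-Fu for B cells. Dendritic cell markers were at 14.9 to 22.3 CPM in Pi-Fu and 9.23 to 23.5 CPM in Pu-Fu. Red blood cell markers had 6 of 6 positive log2 folds and were at 577 to 1840 CPM in Pi-Fu and 407 to 728 CPM in Pu-Fu. Their highest value was in Pi-Fu library 4, as in ifi27.1 and ifi27.8. Of these 6 markers, 3 were higher at an unadjusted edgeR p under 0.05, 2 had groups that did not overlap, and the median log2 fold was 0.86. Among all tested genes, 3.67% were higher at that p and 2.6% had all Pi-Fu libraries above all Pu-Fu libraries. A positive log2 fold was found in 48.6% of them. The summed level of every marker list read here overlapped between the groups, and the part of these cells in the ifi27 values was not tested.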

How the data were processed

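Ventricle RNA (1 ng per library, 2 rounds of amplification, single reads of 60 bases, per the labels' protocols) was sequenced for 8 pooled libraries. The deposited table holds raw counts per gene. Reads were counted by the authors with featureCounts 2.0.3, per the file headers, on the Ensembl release 111 annotation of GRCz11, with strand option 0 and no option to count multi-mapping or multi-overlapping reads. Per the submitters' processing notes, STAR 2.7.10a, FastQC 0.11.9, MultiQC 1.12, R 4.4.0 and DESeq2 1.44.0 were used. Gene lengths are the exon lengths of the deposited table. Reads carried no molecular identifiers, so reads amplified from the same molecule could not be told apart. Intervals cover the counting error of reads only, and are too narrow for that of molecules where such reads are present.

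Symbols came from a table of gene names (29201 of 32520 genes). Counts were fitted with edgeR 4.0.16 in R 4.3.3 (quasi-likelihood test, TMM factors, filterByExpr with a minimum count of 10, Benjamini-Hochberg adjustment over 13604 tested genes at 0.05). SE was derived from the test (size of the log2 fold divided by the root of F). In 3 simulations of this comparison with 13302 genes run and 200 changed, 23.3% of genes at a fold of 2 and 83% at a fold of 4 were recovered, with 5.62% of calls false. Simulated counts were drawn separately for each gene, with no library set apart from its group. These rates therefore describe the simulated data and are not taken to hold for the real libraries. Alternatives were other scalings, filters, DESeq2 1.42.0, limma 3.58.1, a replicate block and leaving out each library.

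The copies, lists and tests were chosen with earlier results of these data known. Genes named are all copies, the 4 nearest tested genes on each side, the 5 most alike in log2 CPM (prior count of 2), and the 3 most abundant tested genes of each interferon list with isg15 and RSAD2. Of the 94 list entries of the interferon lists 81 matched a gene, by symbol or, for human-style names, by symbol stem and chromosome. The stem of these is the symbol without its final a or b. Some genes that this rule takes are not reported here; they stay in the counts and medians of the lists.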

Additional observations from a re-analysis of the deposited data

Results flagged for a closer look

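In the Pi-Fu group of 4 libraries, library 7 stood apart from the other 3 by a gap large against the whole range in 3 copies: ifi27.2 with 521 CPM, ifi27.3 with 48.9 CPM and ifi27.5 with 10.0 CPM. The other Pi-Fu libraries averaged 170 ± 34.1, 16.5 ± 0.971 and 1.69 ± 0.11 CPM in these copies (SD, n = 3). The copies and their sum were examined in both groups, 18 sets of 4 libraries in all, and chance alone marks about 1 in 20 such sets; the copies of an array are not independent of each other.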

How the results depend on the processing

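Log2 folds of the 8 copies stayed positive in all 128 values from 16 alternatives, and 125 of them lay within 1 SD of replicates of the value reported. The exceptions were ifi27.5 without Pi-Fu library 7 (1.23; 1.23 to 2.67 over all libraries left out), and ifi27.3 (1.51) and ifi27.5 (1.04) with a replicate block. All are refits of the same libraries for copies chosen on this contrast, so a shared sign is partly built in. Folds that moved widely still counted among the 125. Without Pi-Fu library 7, that of ifi27.2 went from 1.58 to 0.98 and that of ifi27.6 from 1.11 to 0.57. Libraries of both groups share the numbers 1 and 4, whose paired deviations correlated at 0.115 and -0.281, and with 2 such pairs the numbers are not taken to pair the libraries. In the fit with that block, libraries whose number occurs in a single group, Pi-Fu library 7 included, do not inform the group fold. It rests on libraries 1 and 4 of each group, and is not a fit of equal weight to the others. With that replicate block edgeR called 20 genes across the table and 0 copies, where it called 0 and 0 without it. DESeq2 called 63 genes and 4 copies; no other alternative called a gene. Leaving out each library kept the log2 ratio of the summed copies between 0.79 and 1.34 and the number of copies without overlap between 5 and 7, with 7 without Pu-Fu library 5. Library sizes alone, which move the median of all genes to 0.07, and upper-quartile factors, which move it to 0.04, each gave 6. The share of all tested genes without overlap was not determined in these alternatives. Fewer libraries also make it easier for groups not to overlap, so a higher count with a library left out is partly built in. Levels not divided by length exchange the ranks of ifi27.3 and ifi27.6 (6 and 7) in Pu-Fu. With counts of 3 to 24 in 7 of its 8 libraries, ifi27.5 is limited by depth.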

Other observations

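With all libraries included, the smallest folds of the array lay at its ends, which was seen after the fact and not tested. Both end copies, ifi27.1 and ifi27.8, had the smallest log2 folds (0.69 and 0.21), and the 6 copies between them had 1.11 to 2.42. Without Pi-Fu library 7 the log2 fold was 0.57 in both ifi27.1 and ifi27.6, 0.27 in ifi27.8 and 0.57 to 1.61 in the 6 inner copies, so that ifi27.1 no longer stood below all of them. The end copies were also among the strongest in Pu-Fu ventricles, at 55.5 and 45.2 CPM per kilobase, while ifi27.3 and ifi27.5, with the largest folds, were the weakest there, at 3.9 and 0.841 CPM per kilobase. The copy ifi27.2 did not follow that relation of level and fold, being strongest in Pu-Fu at 87.2 CPM per kilobase with a log2 fold of 1.58. Pu-Fu levels enter both of these quantities, so they are not independent.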
